A study of Mus musculus with 9 samples.

Results

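The collagens that lie outside basement membranes were measured as transcripts in 9 mouse hearts. They were the 36 genes, of 22180 genes with a probe set of their own, whose symbol names a collagen alpha chain, after the basement membrane collagen genes Col4a1 to Col4a6, Col15a1 and Col18a1 were left out. Each gene was read from its probe set with the highest mean signal, so that no measured difference entered the choice of probe set. The group of genes itself was chosen with earlier results of these data known. Of the 36 genes, 28 had a mean above 5.21 on the log2 scale, the median over all probe sets, and were tested. A stricter limit 1 log2 unit higher left 13 genes. The other 8 genes (Col6a4, Col6a5, Col9a1, Col10a1, Col11a1, Col19a1, Col22a1 and Col28a1) lay below the median and are given as values only.

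The hearts came from mice aged 2 months, with 3 hearts in each of 3 genotypes and 1 array per heart. Col4a3-/-OPN-/- mice lack both Col4a3, which encodes a chain of type IV collagen, and osteopontin, a secreted glycoprotein that binds integrins. Col4a3-/- mice lack the collagen chain alone and model Alport syndrome, and wild type mice carry neither deletion. Strain and sex are not given in the sources used here, and the labels restrict neither deletion to a cell type. By its title the series asks whether Col4a3-/- mice show features of heart failure with preserved ejection fraction and what osteopontin does in them. The values are log2 signals of an array, so their differences are log2 fold differences, and the number of arrays limits their precision. Nothing in the labels ties hearts to litters or days, so whether hearts share them is not known. The p-values of genotype comparisons set each difference against the spread between these hearts, taken as independent.

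Collagen is the chief structural protein of the space between heart muscle cells. Fibroblasts make most of it: chains of types I and III assemble into the thick fibrils that carry tension, type V chains help to start them, and type VI chains form beaded filaments near the cell surface. Each chain is hydroxylated and glycosylated in the endoplasmic reticulum, wound into a triple helix, trimmed outside the cell and cross-linked, and cells sense it through integrins and discoidin domain receptors. Cartilage collagens (types II, IX, X and XI) and the transmembrane collagens are made mainly by other cells.

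Promoter sequences are given for 4 genes, Col1a2, Col3a1, Col6a1 and Col6a2, whose signals differed widely between hearts and moved together with Col1a1. Col6a1 and Col6a2 are also neighbours on chromosome 10. Each sequence is the 250 bases before the annotated start, 5′ to 3′ on the gene's strand, from RefSeq on GRCm38.p6, which held a promoter for 28 of the 36 genes. Capitals mark the CCAAT box motif, the core of the TATA box (the letters TATAA) and the core of the GC box (the letters GGGCGG) on either strand, where matches of 1 motif may overlap.
Col1a2, chr6:4505368-4505617, plus strand: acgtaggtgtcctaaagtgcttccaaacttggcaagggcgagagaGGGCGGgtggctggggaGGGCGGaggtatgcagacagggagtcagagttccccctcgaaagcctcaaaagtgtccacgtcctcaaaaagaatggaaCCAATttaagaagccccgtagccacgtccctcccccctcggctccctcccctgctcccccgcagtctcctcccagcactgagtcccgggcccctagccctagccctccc
Col3a1, chr1:45311288-45311537, plus strand: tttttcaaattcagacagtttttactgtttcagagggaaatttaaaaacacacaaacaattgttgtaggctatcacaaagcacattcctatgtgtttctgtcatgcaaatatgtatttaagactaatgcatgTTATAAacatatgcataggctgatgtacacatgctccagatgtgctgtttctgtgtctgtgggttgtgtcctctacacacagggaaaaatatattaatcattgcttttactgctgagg
Col6a1, chr10:76726045-76726294, minus strand: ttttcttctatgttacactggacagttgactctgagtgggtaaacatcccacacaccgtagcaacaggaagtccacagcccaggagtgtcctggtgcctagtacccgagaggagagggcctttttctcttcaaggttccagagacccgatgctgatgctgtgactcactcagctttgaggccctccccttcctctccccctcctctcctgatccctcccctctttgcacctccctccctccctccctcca
Col6a2, chr10:76623405-76623654, minus strand, the first of 2 starts listed: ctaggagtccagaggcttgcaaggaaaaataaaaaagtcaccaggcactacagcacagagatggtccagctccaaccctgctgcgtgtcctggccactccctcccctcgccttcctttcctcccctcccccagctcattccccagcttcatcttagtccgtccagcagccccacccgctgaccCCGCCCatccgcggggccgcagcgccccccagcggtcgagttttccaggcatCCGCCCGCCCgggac
Col1a2 held 1 CCAAT and 2 GGGCGG matches, Col3a1 held 2 TATAA matches that overlap, Col6a2 held 3 GGGCGG matches, and Col6a1 held none of the 3 motifs. GGGCGG was present in 17 of the 28 collagen promoters and in 32.9% of 27025 promoters of the same length. CCAAT was present in 8 of the 28 and in 34.5% of all promoters, and TATAA in 6 of the 28 and in 23.5%. The 4 genes whose signals moved together thus held different combinations of these letters. A match is a description of the sequence and not a binding site.

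Before the genes are described, some facts of the hearts bear on all of them. Arrays had medians between 5.18 and 5.24. Col4a3-/- replicate 3 stood apart, with a mean Pearson's r of 0.943 with the other arrays, against 0.965 to 0.977 for the others. Col4a3 itself lay at 5.17, 4.87 and 5.26 in Col4a3-/-OPN-/- hearts, 5.27, 4.96 and 5.19 in Col4a3-/- hearts and 5.07, 5.31 and 5.52 in wild type hearts (replicates 1 to 3, as in every such list below), with a mean of 5.18, below the median of all probe sets, so it does not check the labels. No probe set carried the single symbol Spp1, the osteopontin gene. Xist, at 8.56 in Col4a3-/-OPN-/- replicate 2 and at 7.59 and 8.495 in replicates 1 and 3 of the Col4a3-/- hearts, had a female pattern there, and lay between 4.52 and 4.77 in the other 6 hearts. The Y-linked gene Eif2s3y was at 4.75, 4.60 and 4.67 in those 3 hearts and between 7.998 and 8.39 in the other 6. No wild type heart had the female pattern. Sex pattern was thus uneven between the genotypes of every comparison and cannot be fully told apart from genotype. Col4a3-/- replicate 2 had the highest airway (Scgb1a1, 12.21) and brown fat (Ucp1, 11.06) signals. Comparisons share hearts: Col4a3-/- hearts enter 2 of the 3 comparisons, and so do wild type hearts.

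No collagen gene outside basement membranes differed between genotypes past the adjusted threshold. In Col4a3-/- against wild type hearts, limma called 0 of the 28 tested collagen genes at an adjusted p under 0.05, where 0% of 13650 tested probe sets were called. At an unadjusted p under 0.05 it again gave 0 of 28, against 8.35% of all probe sets, and hearts of the 2 genotypes did not overlap for 1 of 28 genes, against 12.5%, which was Col23a1. Between Col4a3-/-OPN-/- and Col4a3-/- hearts, 0 of 28 passed after adjustment (0.044% of all probe sets) and 0 before it (13.6%), and 5 of 28 did not overlap (16.5%), all lower in Col4a3-/-OPN-/- hearts (Col9a2, Col13a1, Col16a1, Col26a1 and Col27a1). Between Col4a3-/-OPN-/- and wild type hearts, 0 of 28 passed after adjustment (0%) and 0 before it (3.68%), and 2 of 28 did not overlap (13.2%), Col7a1 and Col9a2, both lower in Col4a3-/-OPN-/- hearts. The moderated F-test of any difference among the 3 genotypes called 0 of 28 after adjustment, against 0.0147% of all probe sets, and 0 before it, against 9.3%. Median log2 differences over the 28 genes were 0.02, -0.01 and -0.0007 in these 3 comparisons, beside -0.02, 0.04 and 0.01 over all tested probe sets. In each comparison 14 genes had a positive and 14 a negative difference. Of the 13650 tested probe sets, 6138 were positive and 7512 negative in the first comparison. The counts were 7875 and 5775 in the second, and 7251 and 6399 in the third.

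Most collagen genes above the stricter limit had a wide spread among the Col4a3-/- hearts. Over the 13 collagen genes above the stricter limit, the median SD was 0.36 in Col4a3-/-OPN-/- hearts, 0.69 in Col4a3-/- hearts and 0.18 in wild type hearts. Over all probe sets above that limit the median SD was 0.14 in Col4a3-/-OPN-/- hearts, 0.25 in Col4a3-/- hearts and 0.12 in wild type hearts. Over all tested probe sets it was 0.14 in Col4a3-/-OPN-/- hearts, 0.21 in Col4a3-/- hearts and 0.12 in wild type hearts. The SD was largest in Col4a3-/- hearts for 11 of the 13 genes (84.6%), against 68.9% of all probe sets above the stricter limit. The 15 fainter genes had median SDs of 0.07, 0.09 and 0.11 in Col4a3-/-OPN-/-, Col4a3-/- and wild type hearts. The spread thus lay in the collagen genes with clear signal.

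**Figure D1:**
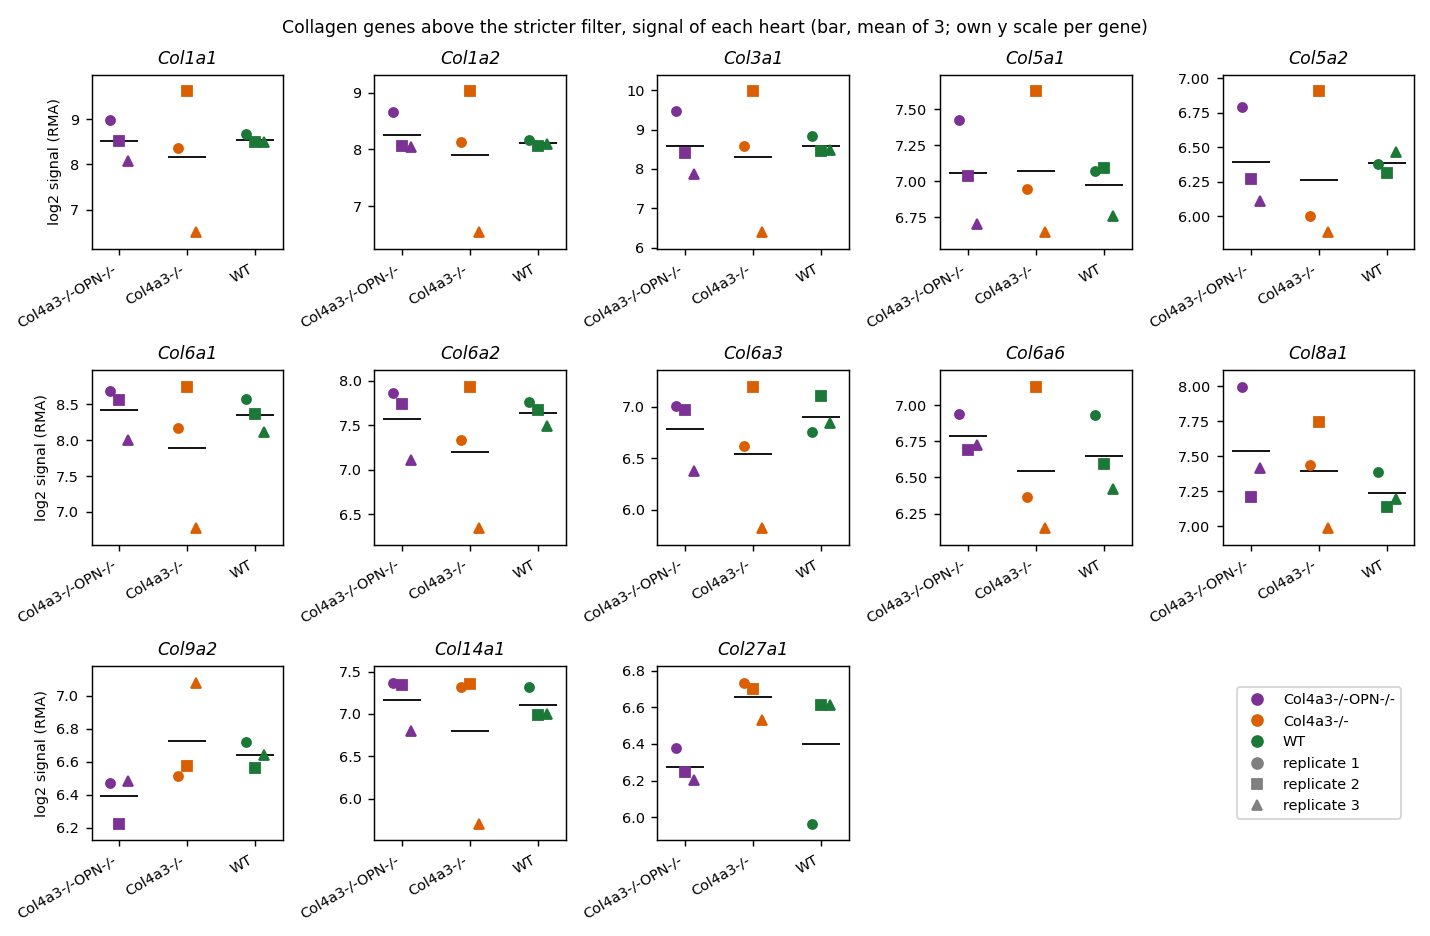
Log2 signal of each heart for the 13 collagen genes above the stricter limit, with Col4a3-/-OPN-/-, Col4a3-/- and wild type hearts from left to right, 1 point per heart and a bar at the mean of 3; each panel has its own scale. For Col1a1, Col1a2, Col3a1 and Col6a1 the Col4a3-/- hearts lie both above and below every wild type heart, while Col9a2 and Col27a1 have another pattern.

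Both type I chains showed this spread. Col1a1, the main chain of type I collagen, was at 8.98, 8.51 and 8.07 in Col4a3-/-OPN-/- hearts, 8.36, 9.61 and 6.50 in Col4a3-/- hearts and 8.67, 8.49 and 8.49 in wild type hearts. Among Col4a3-/- hearts, replicate 2 was thus the highest of all 9 hearts and replicate 3 the lowest, and replicate 1 lay just below wild type. Group means were 8.52 ± 0.46 in Col4a3-/-OPN-/- hearts, 8.16 ± 1.56 in Col4a3-/- hearts and 8.55 ± 0.10 in wild type hearts (SD, n = 3 each). The log2 difference was -0.39 in Col4a3-/- against wild type hearts (SE 0.58, limma adjusted p = 0.880), 0.36 in Col4a3-/-OPN-/- against Col4a3-/- hearts (adjusted p = 0.813) and -0.03 in Col4a3-/-OPN-/- against wild type hearts (adjusted p = 0.999). The 95% interval of the first, from -1.67 to 0.90, holds a change of more than 1 log2 unit downwards as well as no change. Col1a2, the partner chain, was at 8.66, 8.07 and 8.04 in Col4a3-/-OPN-/- hearts, 8.13, 9.02 and 6.54 in Col4a3-/- hearts and 8.17, 8.06 and 8.10 in wild type hearts, and had log2 differences of -0.22, 0.36 and 0.15 in the same comparisons. Its hearts had the same extremes as those of Col1a1, replicate 2 highest and replicate 3 lowest among all 9.

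Col3a1, the chain of type III collagen, which mixes with type I in fibrils, had the widest range of all members. It was at 9.48, 8.41 and 7.86 in Col4a3-/-OPN-/- hearts, 8.58, 9.96 and 6.39 in Col4a3-/- hearts and 8.83, 8.47 and 8.47 in wild type hearts. Col4a3-/- replicate 2 exceeded Col4a3-/- replicate 3 by 3.58 log2 units, or 11.9-fold. The corresponding gap was 3.11 log2 units (8.63-fold) for Col1a1, larger than that of 99.9% of tested probe sets, and 2.49 (5.61-fold) for Col1a2. Replicate 3 lay below the mean of the other 8 hearts 5.16-fold for Col3a1, 4.43-fold for Col1a1 and 3.35-fold for Col1a2. The Col3a1 difference was -0.28 between Col4a3-/- and wild type hearts (SE 0.71, limma adjusted p = 0.938), smaller than its SE.

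Type V chains, which set the number and width of fibrils, varied over a smaller range. Col5a1 was at 7.43, 7.03 and 6.70 in Col4a3-/-OPN-/- hearts, 6.95, 7.62 and 6.64 in Col4a3-/- hearts and 7.07, 7.09 and 6.75 in wild type hearts. Col5a2, which neighbours Col3a1 on chromosome 1, was at 6.79, 6.27 and 6.11 in Col4a3-/-OPN-/- hearts, 6.003, 6.90 and 5.88 in Col4a3-/- hearts and 6.38, 6.31 and 6.46 in wild type hearts. Col5a3 was at 6.36, 6.17 and 5.75 in Col4a3-/-OPN-/- hearts, 5.87, 6.24 and 5.76 in Col4a3-/- hearts and 6.07, 6.17 and 5.91 in wild type hearts, and all 3 genotypes overlapped for each of these chains. For Col5a1 and Col5a2 the highest heart was Col4a3-/- replicate 2 and the lowest Col4a3-/- replicate 3. For Col5a3 the highest was Col4a3-/-OPN-/- replicate 1 and the lowest Col4a3-/-OPN-/- replicate 3. Between Col4a3-/- and wild type hearts the differences of Col5a1, Col5a2 and Col5a3 were 0.10, -0.12 and -0.09.

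The remaining fibrillar genes belong mainly to cartilage and lay near the background of the array, except Col27a1. Col2a1, the chain of cartilage type II collagen, was at 5.70, 5.69 and 5.72 in Col4a3-/-OPN-/- hearts, 5.75, 5.66 and 5.79 in Col4a3-/- hearts and 5.72, 5.605 and 5.88 in wild type hearts. Col11a2, a type XI chain, was at 5.45, 5.49 and 5.34 in Col4a3-/-OPN-/- hearts, 5.58, 5.38 and 5.65 in Col4a3-/- hearts and 5.40, 5.37 and 5.39 in wild type hearts, and Col24a1, a minor fibrillar chain, was at 5.21, 5.27 and 5.23 in Col4a3-/-OPN-/- hearts, 5.41, 5.27 and 5.18 in Col4a3-/- hearts and 5.32, 5.19 and 5.19 in wild type hearts. Col11a2 was highest in Col4a3-/- replicate 3, the heart with the lowest Col1a1, and Col24a1 was lowest there, within a narrow range. Col27a1, a fibrillar chain of cartilage and other tissues, was at 6.38, 6.24 and 6.204 in Col4a3-/-OPN-/- hearts, 6.74, 6.70 and 6.53 in Col4a3-/- hearts and 5.96, 6.61 and 6.61 in wild type hearts. Every Col4a3-/-OPN-/- heart lay below every Col4a3-/- heart for Col27a1, with a log2 difference of -0.38 (SE 0.18, unadjusted p = 0.0537, limma adjusted p = 0.378), the smallest p of any collagen gene in any comparison. Against wild type hearts its differences were 0.26 in Col4a3-/- hearts and -0.12 in Col4a3-/-OPN-/- hearts, and 1 wild type heart, replicate 1, was the lowest of all 9. Of the 11 fibrillar genes 10 were tested, with 4 positive and 6 negative differences in Col4a3-/- against wild type hearts (median -0.05), 5 and 5 in Col4a3-/-OPN-/- against Col4a3-/- hearts (median 0.06), and 6 and 4 in Col4a3-/-OPN-/- against wild type hearts (median 0.01).

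The beaded filament genes of type VI collagen went with the fibrillar genes of fibroblasts. Of 6 genes 4 were tested (Col6a1, Col6a2, Col6a3 and Col6a6), and all 4 had negative differences in Col4a3-/- against wild type hearts (median -0.40) and positive ones in Col4a3-/-OPN-/- against Col4a3-/- hearts (median 0.30), with 0 past the threshold. Col6a1 was at 8.68, 8.56 and 8.002 in Col4a3-/-OPN-/- hearts, 8.16, 8.74 and 6.77 in Col4a3-/- hearts and 8.57, 8.37 and 8.12 in wild type hearts. Its difference was -0.46 in Col4a3-/- against wild type hearts (SE 0.40, limma adjusted p = 0.777) and 0.52 in Col4a3-/-OPN-/- against Col4a3-/- hearts (limma adjusted p = 0.598). Col6a2, picked out here after its values were seen, was at 7.86, 7.74 and 7.10 in Col4a3-/-OPN-/- hearts, 7.34, 7.93 and 6.35 in Col4a3-/- hearts and 7.76, 7.68 and 7.49 in wild type hearts. For all 4 tested genes Col4a3-/- replicate 2 was the highest and Col4a3-/- replicate 3 the lowest of the 9 hearts. A second probe set of Col6a1, with a mean of 5.76, was at 5.43, 6.06 and 5.54 in Col4a3-/-OPN-/- hearts, 5.86, 6.12 and 5.18 in Col4a3-/- hearts and 6.03, 5.73 and 5.86 in wild type hearts, with differences of -0.15, -0.04 and -0.20 in the 3 comparisons. It too was lowest in Col4a3-/- replicate 3, but its range was smaller.

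Fibril-associated collagens, which sit on the surface of fibrils, split in 2 directions. Of 9 genes 6 were tested. Col14a1, which coats fibrils of dense connective tissue and was picked out after its values were seen, was at 7.37, 7.34 and 6.79 in Col4a3-/-OPN-/- hearts, 7.32, 7.36 and 5.71 in Col4a3-/- hearts and 7.32, 6.99 and 7.004 in wild type hearts. Its value in Col4a3-/- replicate 3 was 2.79-fold below the mean of the other 8 hearts, while Col4a3-/- replicates 1 and 2 were inside the range of the other genotypes. The cartilage chain Col9a2 was at 6.47, 6.22 and 6.48 in Col4a3-/-OPN-/- hearts, 6.51, 6.58 and 7.08 in Col4a3-/- hearts and 6.72, 6.56 and 6.64 in wild type hearts. Here Col4a3-/- replicate 3 was the highest heart, 0.56 above the mean of the other 8, and all Col4a3-/-OPN-/- hearts lay below all others. Col4a3-/- replicate 3 was the highest heart for 4 of the 28 tested collagen genes, against 21.3% of all tested probe sets. Above the stricter limit it was the highest for 1 of 13 genes, against 23.7% of all probe sets there. The Col9a2 difference was -0.33 in Col4a3-/-OPN-/- against Col4a3-/- hearts (SE 0.16, unadjusted p = 0.0697, limma adjusted p = 0.416) and -0.25 in Col4a3-/-OPN-/- against wild type hearts (limma adjusted p = 0.999). Without Col4a3-/- replicate 3 the first of these was -0.15. Col9a3, a partner chain of Col9a2, was at 5.24, 5.37 and 5.44 in Col4a3-/-OPN-/- hearts, 5.46, 5.28 and 5.58 in Col4a3-/- hearts and 5.13, 5.39 and 5.33 in wild type hearts, also highest in Col4a3-/- replicate 3, with a difference of 0.15 in Col4a3-/- against wild type hearts. Col12a1, Col16a1 and Col20a1 stayed between 5.37 and 6.02 in all 9 hearts.

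Network, transmembrane and other collagens varied little, apart from Col8a1. Col8a1, a short-chain collagen of vessel walls, was at 7.99, 7.21 and 7.41 in Col4a3-/-OPN-/- hearts, 7.44, 7.75 and 6.99 in Col4a3-/- hearts and 7.38, 7.13 and 7.19 in wild type hearts, with the highest values in Col4a3-/-OPN-/- replicate 1 and Col4a3-/- replicate 2. Its largest difference, 0.30 in Col4a3-/-OPN-/- against wild type hearts, had SE 0.23 and limma adjusted p = 0.999. Col8a2, its partner chain and the member just above the limit for testing, was at 5.16, 5.10 and 5.21 in Col4a3-/-OPN-/- hearts, 5.52, 5.13 and 5.23 in Col4a3-/- hearts and 5.10, 5.46 and 5.15 in wild type hearts. Among transmembrane collagens, Col13a1 was at 5.58, 5.70 and 5.67 in Col4a3-/-OPN-/- hearts, 5.94, 5.76 and 5.82 in Col4a3-/- hearts and 5.71, 5.66 and 5.88 in wild type hearts, and all its Col4a3-/-OPN-/- values lay below all its Col4a3-/- values. Col23a1 was at 5.77, 5.88 and 5.74 in Col4a3-/-OPN-/- hearts, 5.79, 5.77 and 5.76 in Col4a3-/- hearts and 6.01, 5.81 and 5.98 in wild type hearts, and its Col4a3-/- values all lay below wild type ones, by 0.16 on average (unadjusted p = 0.143, limma adjusted p = 0.691). Col25a1, which is known from neurons and muscle innervation, was at 5.56, 5.68 and 5.29 in Col4a3-/-OPN-/- hearts, 5.90, 5.79 and 5.53 in Col4a3-/- hearts and 5.64, 5.68 and 5.67 in wild type hearts. Col17a1, a collagen of hemidesmosomes in skin, was at 5.11, 5.31 and 5.05 in Col4a3-/-OPN-/- hearts, 5.33, 5.30 and 5.31 in Col4a3-/- hearts and 5.37, 5.22 and 5.16 in wild type hearts. The 4 transmembrane genes had 3 positive and 1 negative differences in Col4a3-/- against wild type hearts, 1 and 3 in Col4a3-/-OPN-/- against Col4a3-/- hearts, and 0 and 4 in Col4a3-/-OPN-/- against wild type hearts, with sizes of at most 0.23. Col7a1, of the anchoring fibrils under epithelia, was at 5.48, 5.37 and 5.497 in Col4a3-/-OPN-/- hearts, 5.45, 5.58 and 5.57 in Col4a3-/- hearts and 5.51, 5.63 and 5.56 in wild type hearts, and each Col4a3-/-OPN-/- heart was below each wild type heart, by 0.12 on average (unadjusted p = 0.218, limma adjusted p = 0.999).

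Just below the limit for testing were Col22a1 and Col28a1. Col22a1, a fibril-associated collagen of tissue junctions, was at 5.06, 5.07 and 5.10 in Col4a3-/-OPN-/- hearts, 5.19, 5.13 and 5.12 in Col4a3-/- hearts and 5.11, 5.12 and 5.16 in wild type hearts. Col28a1, a collagen of peripheral nerve, was at 5.10, 4.88 and 5.02 in Col4a3-/-OPN-/- hearts, 5.26, 5.04 and 4.99 in Col4a3-/- hearts and 4.91, 5.12 and 5.197 in wild type hearts. The other 6 untested genes ranged from 4.56 (Col10a1, of hypertrophic cartilage, in Col4a3-/-OPN-/- replicate 1) to 5.55 (Col6a5, an alternative type VI chain, in Col4a3-/- replicate 2). Neither Col22a1 nor Col28a1 stands apart from Col8a2 and Col17a1 on the other side of the limit, and with the 8 untested genes included in a fit without a filter no collagen gene passed. The signal of an array near its background says little about whether a transcript is present.

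**Figure D2:**
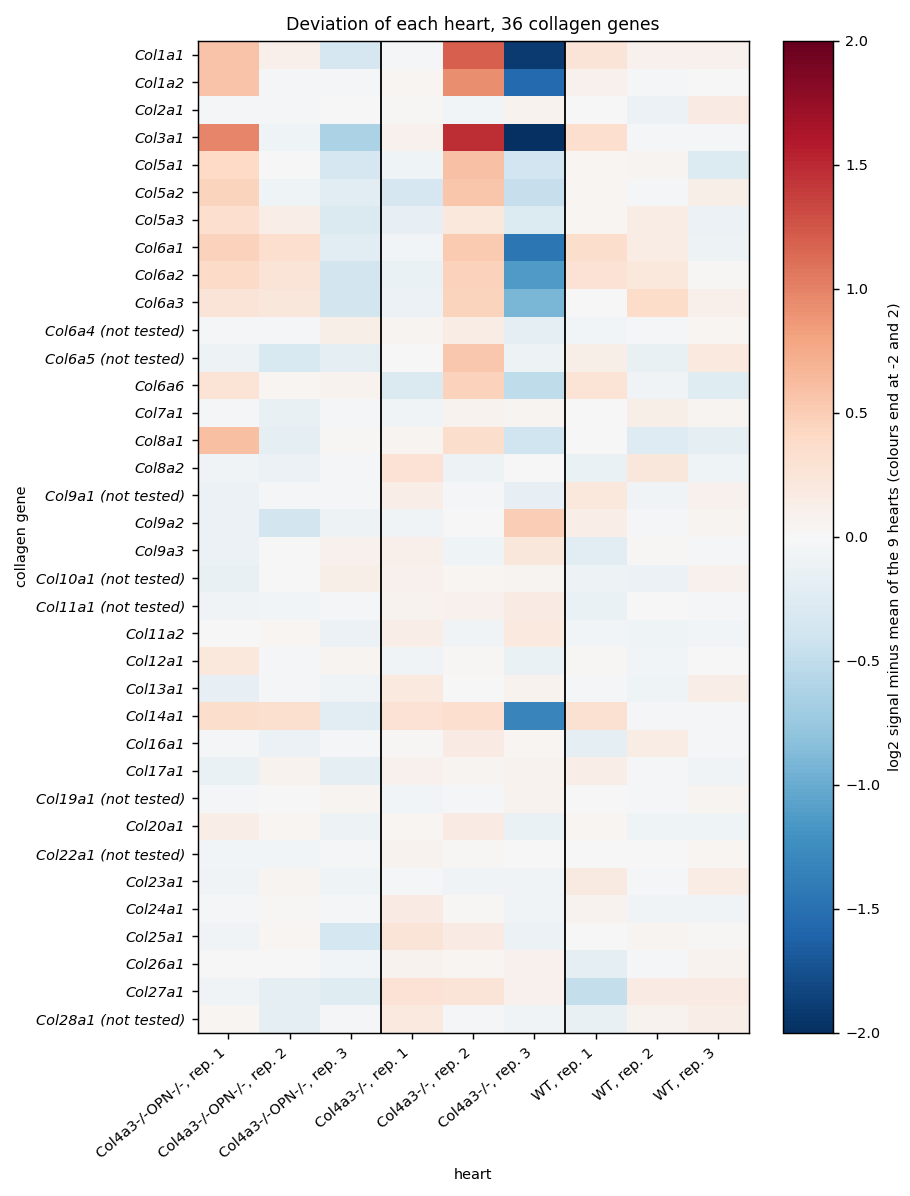
Log2 signal of each heart minus the mean of the 9 hearts for all 36 collagen genes, one row per gene and one column per heart, with colours ending at -2 and 2 (Col3a1 in Col4a3-/- replicate 3 lies beyond). Blue in Col4a3-/- replicate 3 and red in Col4a3-/- replicate 2 share many rows, among them those of Col1a1, Col1a2, Col3a1, Col5a1, Col5a2 and the 4 tested type VI genes.

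**Figure D3:**
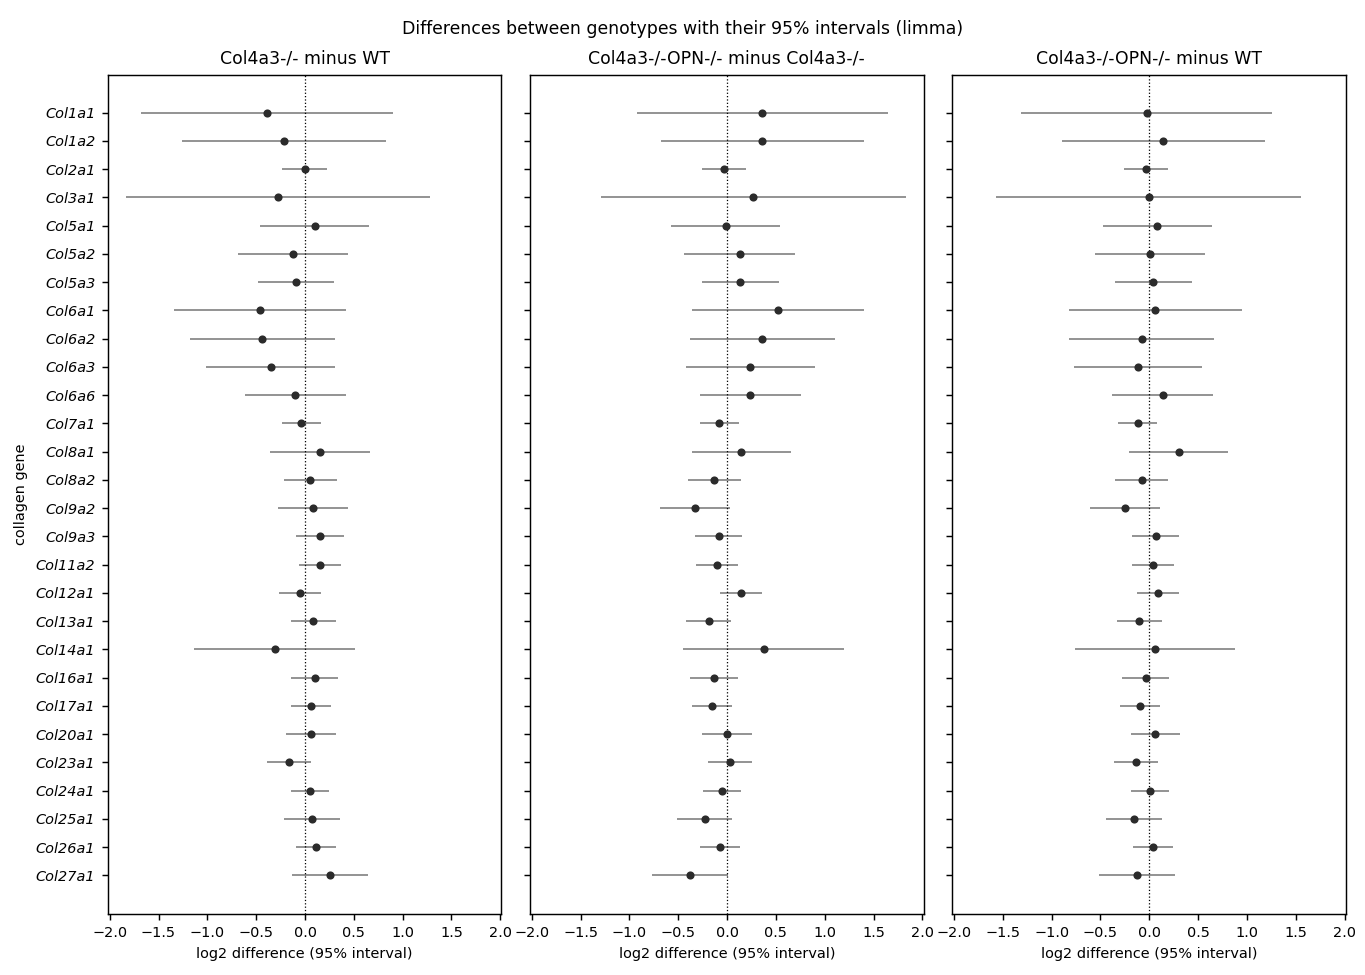
Log2 differences of the 28 tested collagen genes in the 3 comparisons (points) with their 95% intervals from limma (lines); the dotted line marks 0. Every interval of Col1a1, Col3a1, Col6a1 and Col14a1 crosses 0 and is wider than that of any gene near the background; the interval of Col27a1 in Col4a3-/-OPN-/- minus Col4a3-/- ends at 0.01.

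The sign of most differences among the collagens with clear signal turned on which Col4a3-/- heart was counted. Col4a3-/- replicate 3 was the lowest of the 9 hearts for 14 of the 28 genes, against 26.1% of all tested probe sets, and for 11 of the 13 genes above the stricter limit, against 29.9% of all probe sets above it. Col4a3-/- replicate 2 was the highest for 11 of the 28 genes, against 9.52% of all tested probe sets, and for 9 of the 13, against 7.97%. With all hearts, the 13 genes had 4 positive and 9 negative differences in Col4a3-/- against wild type hearts (median -0.22). Without replicate 3 they had 11 positive and 2 negative ones (median 0.23), and without replicate 2 they had 2 positive and 11 negative ones (median -0.59). Between Col4a3-/-OPN-/- and Col4a3-/- hearts the same 13 genes had 10 positive and 3 negative differences with all hearts (median 0.24), 1 and 12 without Col4a3-/- replicate 3 (median -0.15), and 11 and 2 without Col4a3-/- replicate 2 (median 0.56).

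No collagen gene passed after adjustment in any of these fits. Without Col4a3-/- replicate 2, 6 of 28 genes had an unadjusted p under 0.05 in Col4a3-/- against wild type hearts, against 11.6% of all tested probe sets. They were Col1a1 (-1.11), Col6a1 (-0.88), Col6a2 (-0.80), Col6a3 (-0.68) and Col5a2 (-0.44), all lower in Col4a3-/- hearts, and Col11a2 (0.23), higher, with limma adjusted p between 0.391 and 0.425. Against Col4a3-/- hearts, Col4a3-/-OPN-/- hearts again had 6 of 28 with an unadjusted p under 0.05, against 17.7% of all probe sets: Col1a1 (1.09), Col6a1 (0.95), Col1a2 (0.92), Col6a2 (0.72), Col6a6 (0.53) and Col5a2 (0.45), all higher in Col4a3-/-OPN-/- hearts, with limma adjusted p between 0.19 and 0.269. Without Col4a3-/- replicate 3, 0 of 28 had an unadjusted p under 0.05 in Col4a3-/- against wild type hearts, against 7.19% of all probe sets, and 2 of 28, both lower, in Col4a3-/-OPN-/- against Col4a3-/- hearts, against 12.4%. These were Col25a1 (-0.34, limma adjusted p = 0.341) and Col27a1 (-0.44, limma adjusted p = 0.381). Without replicate 3 the differences between Col4a3-/- and wild type hearts were 0.44 for Col1a1, 0.46 for Col1a2, 0.69 for Col3a1 and 0.10 for Col6a1, each of the opposite sign to that with all hearts.

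Tissue markers were read beside these hearts. The mean of the 13 collagen genes above the stricter limit was between 7.07 and 7.69 in Col4a3-/-OPN-/- hearts, between 6.41 and 7.88 in Col4a3-/- hearts and between 7.28 and 7.42 in wild type hearts. Fibroblast markers had a narrower range: the mean of 8 markers was between 9.09 and 9.24 in Col4a3-/-OPN-/- hearts, between 8.67 and 9.16 in Col4a3-/- hearts and between 9.05 and 9.22 in wild type hearts. The lowest of these, 8.67, was Col4a3-/- replicate 3. In that heart Dcn (12.04), Pdgfra (8.91), Tcf21 (7.25) and Pdpn (6.86) lay within or above the range of the wild type hearts, while Lum (6.72), Dpt (8.92) and Mfap5 (7.86) were the lowest of the 9 hearts. Gsn, the eighth marker, was at 11.16, 11.27 and 11.35 in Col4a3-/-OPN-/- hearts, 11.05, 10.66 and 10.79 in Col4a3-/- hearts and 11.02, 11.21 and 11.13 in wild type hearts, so that Col4a3-/- replicate 3 lay below every wild type heart here too, with Col4a3-/- replicate 2 the lowest of all. Its difference was -0.28 in Col4a3-/- against wild type hearts (unadjusted p = 0.0316, limma adjusted p = 0.553). The mean of 5 markers of activated fibroblasts was between 6.98 and 7.51 in Col4a3-/-OPN-/- hearts, between 6.37 and 7.41 in Col4a3-/- hearts and between 7.02 and 7.33 in wild type hearts. One of them, Postn, was at 8.84, 8.18 and 7.93 in Col4a3-/-OPN-/- hearts, 8.08, 8.80 and 6.64 in Col4a3-/- hearts and 8.57, 8.14 and 8.13 in wild type hearts, so that it was lowest in the heart with the least collagen signal. In bulk tissue, fewer cells of a type and less RNA per cell cannot be told apart.

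Markers of other tissues also differed between the hearts. Smooth muscle markers averaged between 7.88 and 8.09 in Col4a3-/-OPN-/- hearts, between 7.01 and 7.45 in Col4a3-/- hearts and between 8.09 and 8.20 in wild type hearts, and all 6 were lower in Col4a3-/- than in wild type hearts at an unadjusted p under 0.05, where 8.35% of all probe sets passed in either direction. One of them, Myh11, the smooth muscle myosin heavy chain, passed adjustment in Col4a3-/-OPN-/- against Col4a3-/- hearts (log2 difference 1.28, limma adjusted p = 0.0104). Atrial markers averaged 9.97 to 10.12 in Col4a3-/-OPN-/- hearts, 8.70 to 9.99 in Col4a3-/- hearts and 10.21 to 10.41 in wild type hearts, with the low values in replicates 1 and 3 of the Col4a3-/- hearts. Valve and cartilage markers averaged 5.64 to 5.88 in Col4a3-/-OPN-/- hearts, 5.39 to 5.85 in Col4a3-/- hearts and 5.94 to 5.998 in wild type hearts. Means of 6 cardiomyocyte markers, 11.72 to 11.82 in Col4a3-/-OPN-/- hearts, 11.48 to 11.82 in Col4a3-/- hearts and 11.72 to 11.78 in wild type hearts, showed the labelled tissue. Endothelial markers averaged 9.09 to 9.36 in Col4a3-/-OPN-/- hearts, 8.78 to 9.17 in Col4a3-/- hearts and 9.22 to 9.29 in wild type hearts, and macrophage markers 7.78 to 8.197 in Col4a3-/-OPN-/- hearts, 7.79 to 8.52 in Col4a3-/- hearts and 7.76 to 8.02 in wild type hearts. Lung epithelium markers reached 6.43 in Col4a3-/-OPN-/- hearts, 8.17 in Col4a3-/- hearts and 5.30 in wild type hearts, brown fat markers 7.72, 9.92 and 8.06 in these genotypes, and Schwann cell markers 5.44, 5.54 and 5.51. The highest lung and brown fat means were those of Col4a3-/- replicate 2, the heart with the highest Col1a1. The part of vessel, atrial, valve, lung and fat tissue in the collagen values was not tested. Col4a3-/- replicate 1 had the lowest atrial mean of all hearts (8.70) together with Col1a1 at 8.36, just below the lowest wild type heart. Col4a3-/- replicate 3 had the next lowest atrial mean (8.90) together with the lowest Col1a1 (6.50). The hearts with the female pattern of Xist had Col1a1 at 8.51 (Col4a3-/-OPN-/- replicate 2) and at 8.36 and 6.50 (Col4a3-/- replicates 1 and 3). The other Col4a3-/- heart, replicate 2, had Col1a1 at 9.61, and the part of sex in these values was not tested.

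Most collagens with clear signal were high and low in the same hearts. Col1a1 was compared with each of the other 13649 tested probe sets over the 9 hearts, by Spearman's rho and Pearson's r with exact permutation p-values over 362880 orders, two-sided and adjusted over all probe sets. The choice of Col1a1 was made with its values known. Rank correlation called 3 probe sets positively related to Col1a1, 0.022% of all tested: Col6a2, Pcolce and Septin9, a cytoskeletal GTPase, and Col6a2 was the 1 collagen gene of 27 among them. It called 1 probe set negatively related, that of Zfp764, a zinc finger gene (rho of -0.996, exact p = 1.1e-05, adjusted p = 0.0376, and r of -0.82, exact p = 0.0166, adjusted p = 0.272). Col6a2 had rho of 0.996 (p = 1.1e-05, adjusted p = 0.0376) and r of 0.95 (p = 5.51e-06, adjusted p = 0.0251), the smallest p-values the permutations can give, apart from rounding. Without the 2 hearts farthest from the median of Col1a1, Col4a3-/- replicates 2 and 3, Col6a2 still had r of 0.90 and rho of 0.991 over 7 hearts (exact p = 0.00317 and 7.94e-04). Of deviations from the genotype means, r was 0.97.

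The other collagens followed in order, short of the adjusted threshold. Col6a1 had rho of 0.97 (exact p = 8.82e-05, adjusted p = 0.0802) and r of 0.96 (exact p = 2.2e-05, adjusted p = 0.0602). Col1a2 had r of 0.99 (exact p = 1.27e-04, adjusted p = 0.0878) and rho of 0.87 (exact p = 0.00368, adjusted p = 0.21), and Col3a1 had r of 0.98 (exact p = 6.61e-05, adjusted p = 0.0797) and rho of 0.85 (exact p = 0.00621, adjusted p = 0.245). Without the 2 farthest hearts Col1a2 had r of 0.82 (exact p = 0.00913) and rho of 0.72 (exact p = 0.077), and Col3a1 had r of 0.96 (exact p = 0.00794) and rho of 0.67 (exact p = 0.117), with fewer hearts behind each p. Col6a1 then had r of 0.86 (exact p = 0.00357) and rho of 0.94 (exact p = 0.00476). The median rho was 0.86 over the 12 collagen genes above the stricter limit, 0.35 over all 27 compared and 0.04 over all probe sets. Col9a3 ran the other way, with rho of -0.89 (exact p = 0.00247, adjusted p = 0.199) and r of -0.77 (exact p = 0.0191, adjusted p = 0.284), and r of -0.74 over the 7 hearts.

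**Figure D4:**
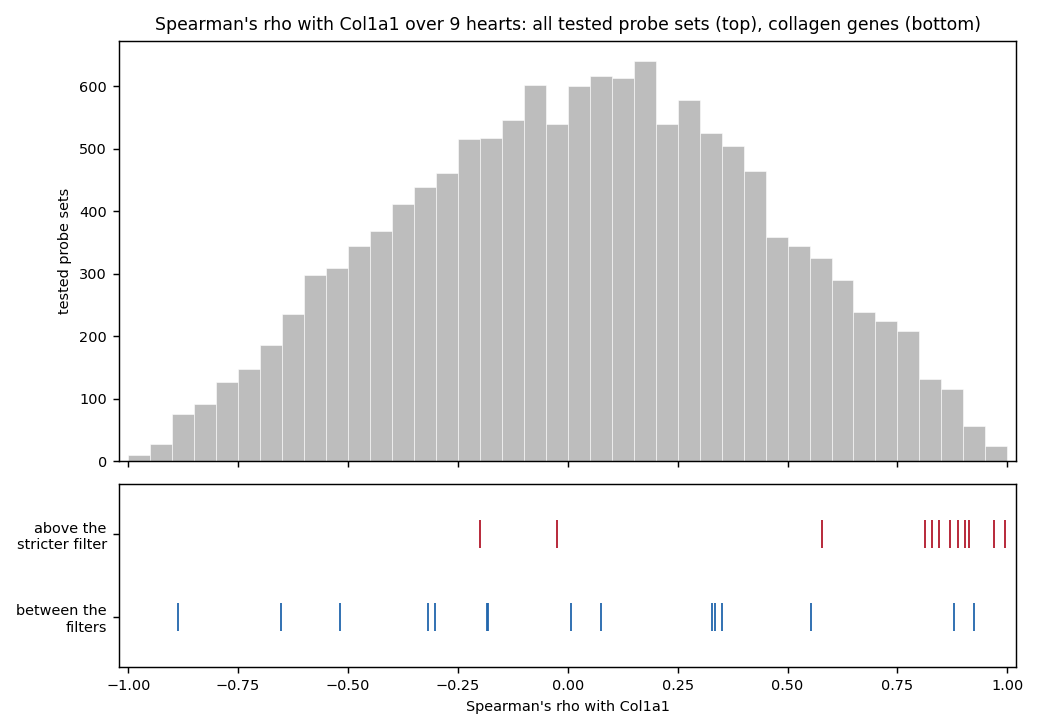
Spearman's rho with Col1a1 over the 9 hearts: histogram of the other tested probe sets (top, number of probe sets) and 1 line per collagen gene (bottom), with the 12 genes above the stricter limit over the 15 fainter ones. Of the 12, 9 lie above 0.8, where few probe sets of the histogram lie, while the fainter genes spread from -0.89 to 0.92.

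Enzymes and chaperones that make and process collagen showed no genotype difference past adjustment. Of 33 such genes 28 were tested: 7 had positive and 21 negative differences in Col4a3-/- against wild type hearts (median -0.13), 18 and 10 in Col4a3-/-OPN-/- against Col4a3-/- hearts (median 0.07), and 11 and 17 in Col4a3-/-OPN-/- against wild type hearts (median -0.03). Over all tested probe sets, 6138 were positive and 7512 negative in the first comparison (median -0.02). The counts were 7875 and 5775 in the second (median 0.04), and 7251 and 6399 in the third (median 0.01). At an unadjusted p under 0.05, 1 of the 28 genes was higher and 2 lower in the first. In the second 4 were higher and 1 lower, and in the third 0 passed. Of all tested probe sets 8.35%, 13.6% and 3.68% passed in either direction. Shares of 3 and 5 of 28 genes are thus near those of all probe sets. Plod1, a lysyl hydroxylase, and P3h1, a prolyl hydroxylase, had the smallest p of those that were lower in Col4a3-/- than in wild type hearts (-0.46 and -0.34, limma adjusted p = 0.553 and 0.576). Plod2, another lysyl hydroxylase, and P3h4, a partner of Plod1, had the smallest p in Col4a3-/-OPN-/- against Col4a3-/- hearts (0.48 and 0.38, limma adjusted p = 0.298 and 0.306). Ppib, a prolyl isomerase, and P3h1 did so in Col4a3-/-OPN-/- against wild type hearts (-0.24 and -0.22, limma adjusted p = 0.999 each).

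Single members of this machinery followed the collagens by heart, and others did not. Pcolce, which speeds the trimming of procollagen, was at 8.12, 7.91 and 7.49 in Col4a3-/-OPN-/- hearts, 7.78, 8.25 and 6.73 in Col4a3-/- hearts and 8.09, 7.84 and 7.79 in wild type hearts, and was called with Col1a1 above (r of 0.98, rho of 0.996, adjusted p = 0.0251 and 0.0376), with r of 0.95 when the 2 farthest hearts were left out. Lox, which cross-links collagen, was at 7.21, 5.82 and 7.54 in Col4a3-/-OPN-/- hearts, 6.03, 7.89 and 9.04 in Col4a3-/- hearts and 6.75, 6.60 and 6.68 in wild type hearts. Lox was thus highest in Col4a3-/- replicate 3, where Col1a1 and Col3a1 were lowest, and its rho with Col1a1 was -0.06 (exact p = 0.887, r of -0.46 with exact p = 0.201). Without that heart Lox had rho of 0.35 and r of 0.50 with Col1a1. Serpinh1, the collagen chaperone, was at 8.48, 8.49 and 7.84 in Col4a3-/-OPN-/- hearts, 8.32, 8.11 and 7.26 in Col4a3-/- hearts and 8.41, 8.76 and 8.02 in wild type hearts, lowest in Col4a3-/- replicate 3 as well.

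Collagen receptors were led by Itga1, the alpha chain of an integrin that binds collagen. Of 10 receptor genes 7 were tested, with 2 positive and 5 negative differences in Col4a3-/- against wild type hearts, and 6 and 1 in each of the other comparisons. All tested probe sets had 6138 positive and 7512 negative, 7875 and 5775, and 7251 and 6399, in the order of comparisons used above. Itga1 was at 8.85, 8.52 and 8.33 in Col4a3-/-OPN-/- hearts, 7.90, 8.05 and 7.48 in Col4a3-/- hearts and 8.50, 8.49 and 8.52 in wild type hearts. No Col4a3-/- heart overlapped any other heart, and the difference was -0.70 against wild type hearts (unadjusted p = 0.00232, limma adjusted p = 0.427) and 0.76 in Col4a3-/-OPN-/- against Col4a3-/- hearts (unadjusted p = 0.00129, limma adjusted p = 0.156). The next smallest p belonged to Ddr1, a discoidin domain receptor, in Col4a3-/- against wild type hearts (0.21) and to Itga2, another integrin chain, in Col4a3-/-OPN-/- against Col4a3-/- hearts (0.24). Ddr2 (0.25) and Itga2 (0.14) had the smallest p between Col4a3-/-OPN-/- and wild type hearts. All 4 of these differences had limma adjusted p of 0.384 or more.

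**Figure D5:**
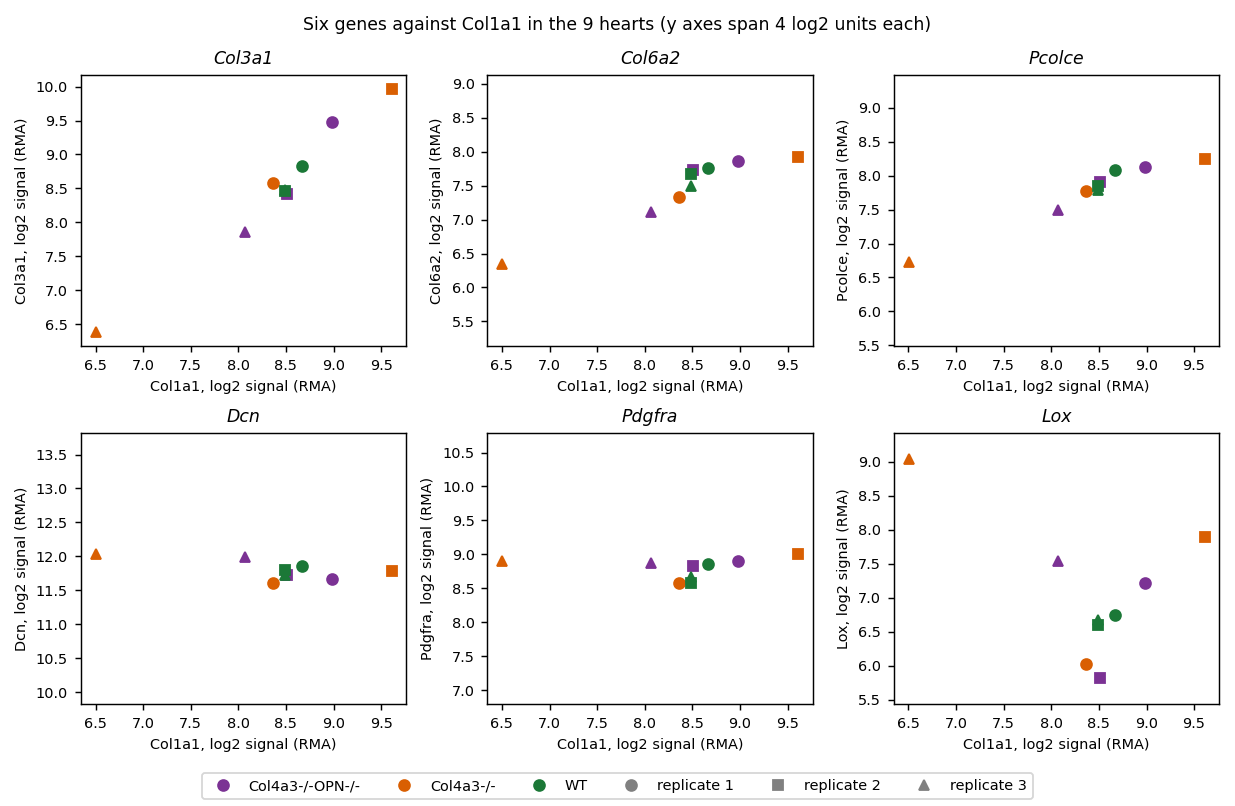
Log2 signal of Col3a1, Col6a2, Pcolce, Dcn, Pdgfra and Lox (vertical axes, 4 log2 units each) against that of Col1a1 (horizontal axes) in the 9 hearts, coloured by genotype and shaped by replicate. Col3a1, Col6a2 and Pcolce follow Col1a1 from Col4a3-/- replicate 3 at the lower left to Col4a3-/- replicate 2 at the upper right, while Dcn and Pdgfra stay nearly level and Lox is highest where Col1a1 is lowest. Of the fibroblast markers only Dcn and Pdgfra are drawn, and Lum, Dpt and Mfap5 were lowest in Col4a3-/- replicate 3. Fibroblast markers differed in rho with Col1a1: Dpt 0.93, Pdpn 0.69, Lum 0.44, Pdgfra 0.34, Tcf21 0.19, Mfap5 -0.08, Gsn -0.22 and Dcn -0.40. In the same order their r was 0.91, 0.28, 0.85, 0.08, -0.03, 0.57, 0.02 and -0.63. Those of activated fibroblasts had 0.98 (Postn), 0.76 (Tnc), 0.63 (Cthrc1), 0.59 (Fap) and 0.04 (Acta2). None of these markers passed the adjusted threshold.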

How the data were processed

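Transcripts of 9 mouse hearts (3 per genotype) were measured on an Affymetrix mouse gene array, per the probe annotation. The deposited values are log2 signals that the authors made by RMA, which corrects background, normalizes across arrays and summarizes probe sets, per the submitters' processing notes; its version is not given in the sources used here. A biotin kit for small RNA is named in the labels, so how the RNA was labelled is uncertain, and labelling could affect the signals of all collagen genes.

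Of 33793 probe sets, 23521 had 1 gene symbol, 1814 had several and 8458 were not listed in the annotation used. Tests covered 13650 probe sets (13085 genes) with 1 symbol and a mean above 5.21, the median over all. All 9 arrays entered 1 limma fit (limma 3.58.1, R 4.3.3; lmFit, eBayes with intensity trend) with genotype as the only factor. Two-sided p-values were adjusted by the Benjamini-Hochberg method over all tested probe sets, at 0.05. The median SE of a difference was 0.15. Exact permutation tests of 3 hearts against 3 cannot go below p = 0.1, so none was run on single genes. Correlations with Col1a1 and their exact p-values were computed with NumPy 2.4.6, on ranks made with SciPy 1.17.1 for Spearman's rho. Fits and correlations were tested on simulated data.

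The collagen genes, the pathway and marker lists and the choice of Col1a1 were made with earlier results of these data known. Values in every heart are given for fibrillar genes that were tested, the 4 genes of lowest p per comparison, and the 2 genes on each side of the filter; of each pathway list, the 2 genes of lowest p per comparison are named. Others are named as chosen after their values were seen, or as examples. Alternatives covered scaling, filter, moderation, array weights, replicate block, a Y-linked covariate and each heart left out.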

Additional observations from a re-analysis of the deposited data

How the results depend on the processing

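Under all 21 alternative settings limma called 0 collagen genes in each comparison. The F-test also called 0 in the settings that fitted all 3 genotypes together. It was not run where only the arrays compared were fitted. The number of all probe sets past the threshold did move. In Col4a3-/- against wild type hearts it was 0, and 1 with centred arrays, the stricter filter, no intensity trend, robust moderation or the Y-linked covariate, 0 to 6 with 1 heart left out, and 12 without Col4a3-/- replicates 2 and 3 together, a setting chosen after seeing the data. Between Col4a3-/-OPN-/- and Col4a3-/- hearts it was 6, and 2 with the stricter filter or array weights, 0 with the Y-linked covariate, 0 to 22 with 1 heart left out and 54 without Col4a3-/- replicates 2 and 3. Between Col4a3-/-OPN-/- and wild type hearts it was 0, and 1 with array weights or the Y-linked covariate, and 0 to 3 with 1 heart left out. Deviations of same-numbered hearts had r from -0.19 to 0.23, and those of other pairs -0.21 to 0.31. With so few hearts these overlapping ranges cannot decide whether the replicate numbers pair the hearts. With the number as a replicate block the count in Col4a3-/-OPN-/- against Col4a3-/- hearts was 0. The stricter filter, by testing only 13 collagen genes, moved the median of the collagen genes to -0.22 in Col4a3-/- against wild type hearts and to 0.24 in Col4a3-/-OPN-/- against Col4a3-/- hearts.

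Signs of the type I and III genes depended on the setting, with no call in any. In Col4a3-/- against wild type hearts, Col1a1 was 0.28 with array weights and 0.38 with the Y-linked covariate, Col1a2 was 0.31, 0.49 and, without Col4a3-/- replicates 2 and 3, 0.017, and Col3a1 was 0.48 and 0.70. In Col4a3-/-OPN-/- against Col4a3-/- hearts, Col1a1 was -0.33 and -0.079, Col1a2 was -0.19 and -0.041, and Col3a1 was -0.53, -0.29 and, without those 2 hearts, -0.0020. The Y-linked covariate gave, for Col4a3-/-OPN-/- against wild type hearts, 0.30 for Col1a1 and 0.41 for Col3a1, and Col3a1 was 0.010 with renewed quantile normalization and 0.0165 with centred arrays. With 1 heart left out, differences in Col4a3-/- against wild type hearts ran from -1.11 to 0.44 for Col1a1, from -0.78 to 0.46 for Col1a2, from -1.10 to 0.69 for Col3a1 and from -0.88 to 0.10 for Col6a1. In Col4a3-/-OPN-/- against Col4a3-/- hearts they ran from -0.47 to 1.09, from -0.32 to 0.92, from -0.69 to 1.10 and from -0.037 to 0.95 for the same genes. In Col4a3-/-OPN-/- against wild type hearts they ran from -0.26 to 0.20, from -0.055 to 0.25, from -0.45 to 0.36 and from -0.0705 to 0.27. The cause was not tested beyond the hearts left out. With 3 hearts a genotype and this spread, differences of about 1 log2 unit in type I and III genes lie inside the intervals, and signals near the array's background limit the 15 fainter genes.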
